A study of Mus musculus with 8 samples.

Results

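The keratinocyte integrins described here are 10 genes for the integrin chains of basal epidermal and hair follicle cells. The α chains are Itga2, Itga3, Itga5, Itga6 and Itgav, and the β chains are Itgb1, Itgb4, Itgb5, Itgb6 and Itgb8. They were chosen by name and matched by Ensembl identifier, which gave 10 of the 46078 genes in the deposited count table. All 10 passed a filter on low counts that kept 16495 genes for testing. The cells were progeny of Lgr5-expressing hair follicle stem cells, traced genetically and sorted from the epidermis of injured mouse skin. Every library carried the strain label Lg5-egfp-ires-creert2/R26-tdTomato. In such mice the Lgr5 locus drives a green fluorescent protein and an inducible Cre recombinase, and Cre switches on a red reporter that daughter cells inherit, so keratinocytes that did not descend from Lgr5-expressing cells fall outside the trace. The Treg-depleted group (n = 4 libraries) lacked regulatory T cells and the Treg-sufficient group (n = 4) had them, and the skin of both had been injured. Each group held 2 libraries of experiment 2 (replicates 3 and 4) and 2 of experiment 1 (replicates 1 and 2). The sources used here give the injury only as one of the skin barrier, and neither the means and timing of depletion, the age of the mice nor the number of animals in a library, so p-values measure the spread between these libraries, which may be technical in part.

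Integrins are receptors built of 1 α and 1 β chain that span the cell membrane and tie the cytoskeleton to proteins of the extracellular matrix. In the basal layer of epidermis and follicle, α6β4 anchors keratinocytes in hemidesmosomes by binding laminin and coupling to keratin filaments, while α3β1 binds the same laminin at focal contacts. The α2β1 pair is a collagen receptor, α5β1 a fibronectin receptor, and αv pairs with β5, β6 or β8. Of these, αvβ6 and αvβ8 are known for releasing active TGF-β from its latent complex, and αvβ6 is known to be induced in keratinocytes during wound healing. Basal stem cells of skin are often isolated by their high surface level of α6 or β1.

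The 10 genes lie on 7 chromosomes of GRCm38, and all are protein coding in the GENCODE annotation. Itga6 (chromosome 2, 71745616 to 71858416, plus strand), Itgav (chromosome 2, 83724397 to 83806916, plus strand) and Itgb6 (chromosome 2, 60598292 to 60722643, minus strand) share a chromosome. So do Itga3 (chromosome 11, 95044474 to 95076801, minus strand) and Itgb4 (chromosome 11, 115974709 to 116008412, plus strand). Itga2 lies on chromosome 13 (114833081 to 114932100, minus strand), Itga5 on chromosome 15 (103344286 to 103366763, minus strand) and Itgb1 on chromosome 8 (128685654 to 128733200, plus strand). Itgb5 lies on chromosome 16 (33829665 to 33949338, plus strand) and Itgb8 on chromosome 12 (119158022 to 119238802, minus strand). RefSeq promoter sequence of GRCm38.p6 was matched for 7 of the 10, and 3 are shown for the members that mark the extremes of the results below. Itgb6 varied most between libraries, Itgb1 varied least, and Itga2 was the member with higher values in all Treg-depleted libraries of each experiment. Each sequence runs 5′ to 3′ on the strand of the gene and ends at the base before its annotated start, at chr2:60722644-60722853 (minus strand) for Itgb6, chr13:114932101-114932350 (minus strand) for Itga2 and chr8:128685404-128685653 (plus strand) for Itgb1. Capitals mark matches to the motifs searched.
Itgb6: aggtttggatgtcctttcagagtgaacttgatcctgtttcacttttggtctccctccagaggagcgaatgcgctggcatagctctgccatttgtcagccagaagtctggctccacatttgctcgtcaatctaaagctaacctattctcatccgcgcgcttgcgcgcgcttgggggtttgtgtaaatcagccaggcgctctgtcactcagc
Itga2: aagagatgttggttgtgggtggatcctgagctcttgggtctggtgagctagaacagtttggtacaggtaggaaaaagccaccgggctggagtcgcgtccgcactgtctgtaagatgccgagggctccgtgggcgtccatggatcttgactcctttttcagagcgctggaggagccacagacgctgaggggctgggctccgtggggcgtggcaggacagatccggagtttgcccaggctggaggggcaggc
Itgb1: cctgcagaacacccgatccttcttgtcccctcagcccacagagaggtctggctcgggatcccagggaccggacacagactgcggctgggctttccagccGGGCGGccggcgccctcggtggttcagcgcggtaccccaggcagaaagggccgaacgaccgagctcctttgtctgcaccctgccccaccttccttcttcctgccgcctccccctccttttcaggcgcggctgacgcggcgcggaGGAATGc
Both strands were searched for the letters of 6 motifs, given here with the share of all 32851 RefSeq promoter windows of 250 bases that hold each. The AP-1 motif TGANTCA occurred in 6.75%. The STAT motif TTCNNNGAA occurred in 7.02%. The TEAD motif GGAATG occurred in 12.6% of windows, and the GC box GGGCGG in 32.7%. The TATA box TATAAA was found in 12.4% and the CCAAT box, named by its letters, in 33.9%. The Itgb1 window held 1 GC box and 1 TEAD match, which do not overlap. None of the 6 occurred in the Itgb6 window of 210 bases or the Itga2 window of 250 bases. GC boxes also stood in the windows of Itga3 (163 bases), Itga5 and Itgb5 (250 bases each). Shorter windows have lower shares: the GC box occurred in 26.7% of windows of 210 bases and in 18.4% of windows of 163 bases.

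Library totals over genes ran from 22330729 to 29975347 counts, and the smallest count of any member was 352 (Itga5), which leaves a small counting error. Markers of the labelled cells were high throughout: the 6 keratinocyte markers summed to between 13272 and 26188 CPM in Treg-depleted libraries and to between 15346 and 22063 CPM in Treg-sufficient ones (CPM are counts scaled to library totals adjusted by the TMM method). Lgr5 itself stood at 308 to 518 CPM in the Treg-depleted and 355 to 491 CPM in the Treg-sufficient libraries. The 9 leukocyte markers summed to 4.40 to 7.21 CPM in the Treg-depleted and 4.40 to 5.23 CPM in the Treg-sufficient libraries, with Cd3e, a chain of the T cell receptor complex, at 0 in 7 of 8 libraries. The regulatory T cell gene Foxp3 was at most 0.799 CPM in these sorted cells, so the counts do not check the depletion. Libraries stood apart in 2 ways. Replicate 2 of both conditions held Xist reads (72.0 CPM in Treg-depleted replicate 2 and 2713 CPM in Treg-sufficient replicate 2, against at most 2.26 CPM elsewhere). Treg-depleted replicate 2 and Treg-sufficient replicate 3 had counts for 18605 and 19593 genes, against 21720 to 23062 in the other libraries. Values without them are given for Itga3, Itga5, Itgb4 and Itgb6.

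Per length of exon, Itgb1, the shared partner of α2, α3 and α5, was the most abundant member, at 127 ± 12.9 CPM per kb (SD, n = 8), and Itga6 and Itgb4, the hemidesmosome pair, followed at 73.0 ± 29.7 and 64.0 ± 26.1 CPM per kb. Itgb5 (36.7 ± 5.19) and Itga3 (35.8 ± 8.99) came next, then Itgb8 (14.8 ± 3.06), Itgav (12.7 ± 2.21) and Itgb6 (9.78 ± 5.95), all in CPM per kb. The lowest were the collagen receptor chain Itga2 at 6.12 ± 2.02 and the fibronectin receptor chain Itga5 at 3.77 ± 1.02 CPM per kb. Neighbours in this order were within their spread for several pairs. Itgb1 exceeded Itga6 in 7 of 8 libraries, Itga6 exceeded Itgb4 in 6, Itgb5 exceeded Itga3 in 6, and Itgav exceeded Itgb6 in only 4. The steps between Itgb4 and Itgb5, between Itga3 and Itgb8 and between Itga2 and Itga5 held in 8 of 8 libraries. Per coding length in place of exon length, Itgb8 moved to the fourth place and Itgb5 to the sixth, and the other 8 kept their places. Itgb1 was also the steadiest member, with a coefficient of variation of 10.2% across the 8 libraries, against 60.8% for Itgb6, 40.8% for Itgb4 and 40.7% for Itga6.

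**Figure D1:**
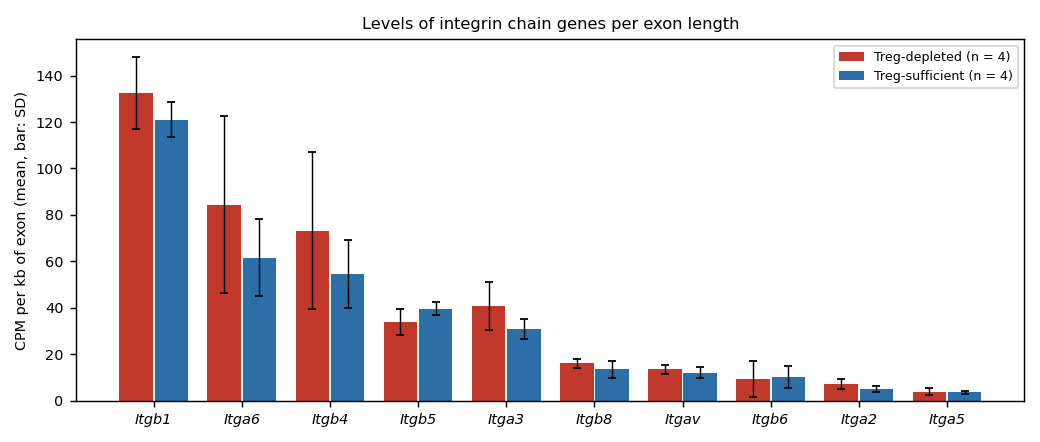
Mean level of each integrin gene in CPM per kb of exon, with bars for the SD over 4 Treg-depleted and 4 Treg-sufficient libraries. The order runs from Itgb1 at 127 down to Itga5 at 3.77 CPM per kb over all libraries, and Itga6 and Itgb4 have the widest error bars.

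The comparison of Treg-depleted with Treg-sufficient libraries asks what regulatory T cells change in these receptors after injury. No member passed an adjusted p of 0.05 by edgeR's quasi-likelihood test with experiment number as a term (Benjamini-Hochberg over all genes, 0 of 10, beside 0 of 16495 genes or 0%). At an unadjusted p under 0.05 there were 2 members, Itga2 and Itga3, beside 7.12% of all genes, and DESeq2 and limma-voom called 0 members each. Fitted log2 differences were positive for 8 members (beside 50.3% of all genes) and negative for Itgb5 and Itgb6, with a median of 0.21 over the 10 and of 0.00 over all genes tested. None of the 10 separated the 4 Treg-depleted from the 4 Treg-sufficient libraries without overlap, which 2.32% of all genes did. In bulk RNA a lower level can come from fewer cells of a type or from less RNA per cell, and these cannot be told apart.

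Within experiment 1, 7 of 10 members had no overlap between the pairs of libraries, beside 37.6% of all genes: Itga2, Itga3, Itga6, Itgb1 and Itgb4 were higher (beside 18.6%) and Itgb5 and Itgb6 lower (beside 19.0%) in both Treg-depleted libraries. With 4 groups of 2 libraries in the model, edgeR called 0 members within experiment 1 (beside 0.606% of all genes, 0.224% higher and 0.382% lower), 6 had an unadjusted p under 0.05 (beside 11.1%), DESeq2 called Itgb6 alone and limma-voom called 0. In experiment 2, 1 of 10 members, Itga2, was without overlap (beside 32.6% of all genes, 16.7% higher), and the counts were 0 members by the adjusted and the unadjusted p (beside 0% and 1.75% of all genes) and 0 by DESeq2 and limma-voom. The difference between these effects, tested as an interaction, passed for 0 members by edgeR (beside 0%) and limma-voom, and 1, Itgb6, had an unadjusted p under 0.05 (beside 5.60%) and was called by DESeq2. For DESeq2, the counts over all genes are given in the closing section.

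**Figure D2:**
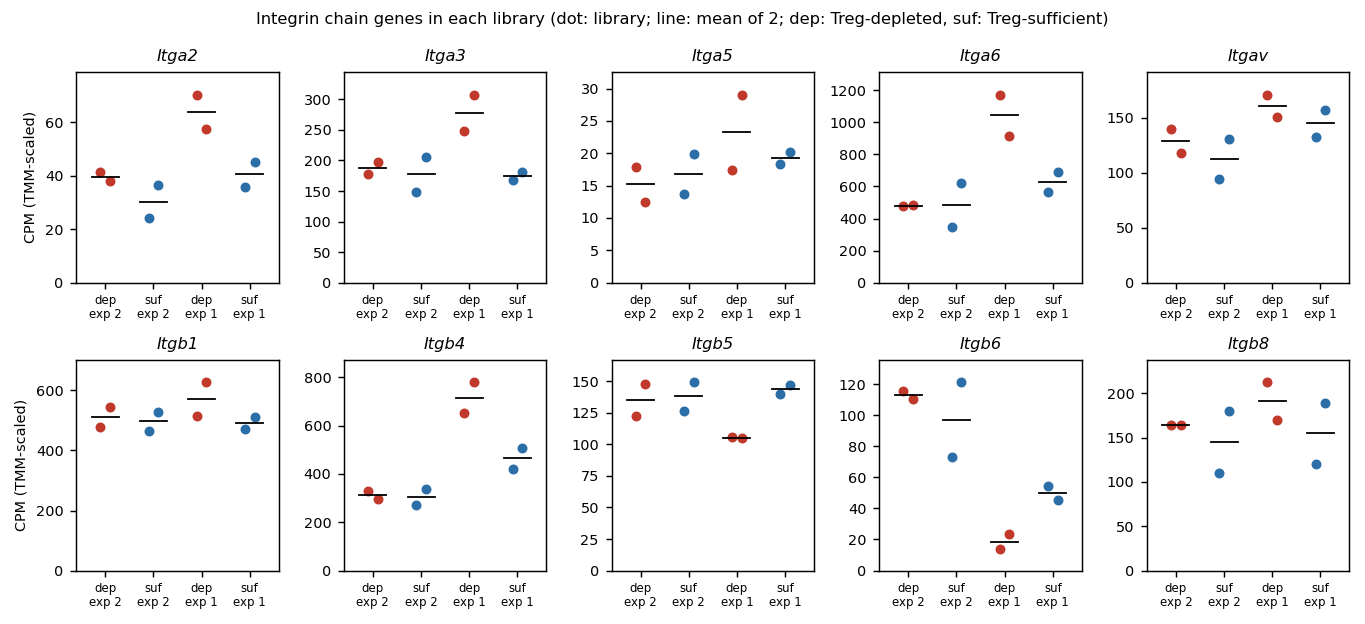
CPM of each integrin gene in every library (dots) with the mean of each pair (line), for Treg-depleted (dep) and Treg-sufficient (suf) libraries of experiment 2 and experiment 1. Itgb6 is at 13.6 and 23.4 CPM in the Treg-depleted libraries of experiment 1 and at 45.2 CPM or more in all others, while Itgb4 and Itga6 are highest in those same 2 libraries.

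Among the laminin receptors, Itga6 stood at 476 and 484 CPM in the Treg-depleted and 346 and 620.0 CPM in the Treg-sufficient libraries of experiment 2. In experiment 1 it stood at 1174 and 915 CPM in the Treg-depleted and 568 and 690.3 CPM in the Treg-sufficient libraries. Both Treg-depleted libraries of experiment 1 were thus above all 6 others, and the experiment 2 pairs overlapped. The log2 difference was 0.36 (SE 0.22) over both experiments, 0.73 (SE 0.27) within experiment 1 and -0.01 (SE 0.27) within experiment 2, with adjusted p of 0.726, 0.362 and 1.00 by edgeR.

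Its hemidesmosome partner Itgb4, which carries the long cytoplasmic tail that binds plectin, was at 331 and 296 CPM in the Treg-depleted and 271 and 335 CPM in the Treg-sufficient libraries of experiment 2. The values of experiment 1 were 651 and 778 CPM in the Treg-depleted and 421 and 508 CPM in the Treg-sufficient libraries. All 4 libraries of experiment 1 were above all 4 of experiment 2, and within experiment 1 the Treg-depleted pair was the higher. Within experiment 1 the log2 difference between conditions was 0.62 (SE 0.18, edgeR adjusted p = 0.215), and within experiment 2 it was 0.05 (SE 0.18).

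Itga3, the α chain of the laminin receptor at focal contacts, had 177 and 198 CPM in the Treg-depleted and 148 and 206 CPM in the Treg-sufficient libraries of experiment 2. It had 248 and 308 CPM in the Treg-depleted and 168 and 182 CPM in the Treg-sufficient libraries of experiment 1. The 2 Treg-depleted libraries of experiment 1 were the highest of the 8. The log2 difference between conditions was 0.38 (SE 0.16) over both experiments, with an unadjusted p of 0.0478 and an adjusted p of 0.696 by edgeR. The difference over both experiments was 0.24 without Treg-depleted replicate 2, 0.23 without the Xist-positive pair and 0.18 without the 2 libraries with fewest genes. Within experiment 1 it was 0.67 (SE 0.19, edgeR adjusted p = 0.209), and within experiment 2 it was 0.08 (SE 0.19).

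Itgb1, the partner of α2, α3 and α5 and the common β chain of basal cells, had 477 and 546 CPM in the Treg-depleted and 465 and 528 CPM in the Treg-sufficient libraries of experiment 2. It had 514 and 627 CPM in the Treg-depleted and 471 and 512 CPM in the Treg-sufficient libraries of experiment 1. All 8 values lay between 465 and 627 CPM. The 95% interval of its log2 difference between conditions ran from -0.13 to 0.39.

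Itga2, the collagen-binding chain, had the smallest p of the members between conditions. It was at 41.4 and 37.9 CPM in the Treg-depleted and 24.0 and 36.5 CPM in the Treg-sufficient libraries of experiment 2, and at 70.4 and 57.7 CPM in the Treg-depleted and 35.9 and 45.3 CPM in the Treg-sufficient libraries of experiment 1. In each experiment both Treg-depleted libraries were above both Treg-sufficient ones, by a small margin in experiment 2, although the 8 libraries overlapped when pooled. The log2 difference was 0.52 (SE 0.16, 95% interval 0.16 to 0.89, unadjusted p = 0.00985, adjusted p = 0.686 by edgeR). It was 0.66 (SE 0.23) within experiment 1 and 0.39 (SE 0.23) within experiment 2. Leaving out 1 library at a time moved the difference over both experiments between 0.43 and 0.68.

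Itga5, the fibronectin-binding chain, was the scarcest member and showed no separation. It had 17.9 and 12.5 CPM in the Treg-depleted and 13.7 and 19.8 CPM in the Treg-sufficient libraries of experiment 2, and 17.4 and 29.1 CPM in the Treg-depleted and 18.4 and 20.2 CPM in the Treg-sufficient libraries of experiment 1. Its highest value came from Treg-depleted replicate 2, one of the libraries that held Xist reads. The log2 difference between conditions was 0.06 (SE 0.22) with that library and -0.16 without it.

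Itgav, the α chain shared by the αv receptors, ranged from 94.6 CPM in Treg-sufficient replicate 3 to 171 CPM in Treg-depleted replicate 1, and the conditions overlapped in both experiments. Its log2 difference between conditions was 0.17 (SE 0.13). Itgb8, which pairs with αv in TGF-β activation, ranged from 164 to 212 CPM in Treg-depleted and from 111 to 189 CPM in Treg-sufficient libraries, with a log2 difference of 0.24 (SE 0.19). Both overlapped between conditions and had an edgeR adjusted p of 0.761 and 0.775.

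Itgb5, a β chain of vitronectin-binding αvβ5, had 122 and 148 CPM in the Treg-depleted and 127 and 149 CPM in the Treg-sufficient libraries of experiment 2, and 106 and 105 CPM in the Treg-depleted and 140.1 and 147 CPM in the Treg-sufficient libraries of experiment 1. The Treg-depleted pair of experiment 1 was below all 6 other libraries. The log2 difference within experiment 1 was -0.45 (SE 0.15, edgeR adjusted p = 0.279) and within experiment 2 it was -0.03 (SE 0.15).

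Itgb6, the injury-induced partner of αv, had the widest spread relative to its mean. It stood at 115 and 110.4 CPM in the Treg-depleted and 72.9 and 121 CPM in the Treg-sufficient libraries of experiment 2, against 13.6 and 23.4 CPM in the Treg-depleted and 54.2 and 45.2 CPM in the Treg-sufficient libraries of experiment 1. The Treg-depleted pair was the lowest of the 8 libraries in experiment 1, and the pairs overlapped in experiment 2. Between conditions the log2 difference was -1.43 (SE 0.31, 95% interval -2.13 to -0.72, adjusted p = 0.0959 by edgeR) within experiment 1. Within experiment 2 it was 0.22 (SE 0.29, 95% interval -0.46 to 0.90). The effect was 1.65 log2 units higher in experiment 2 than in experiment 1 (SE 0.42, unadjusted p = 0.00469), which did not pass over all genes (edgeR adjusted p = 0.463). Over both experiments the difference between conditions was -0.59 (SE 0.35, adjusted p = 0.716 by edgeR). It was -0.27 without Treg-depleted replicate 1, -0.92 without Treg-sufficient replicate 3, -0.96 without the 2 libraries with fewest genes and -0.16 with condition as the one factor in the model. Leaving out 1 library at a time moved the difference within experiment 1 between -1.90 and -1.11, with an edgeR adjusted p of 0.0290 to 0.497, and it passed only without Treg-depleted replicate 2, which held Xist reads and few genes. It was -1.87 (adjusted p = 0.0160) without the 2 libraries with fewest genes. In both of these fits 1 Treg-depleted library of experiment 1 is left, which is assumed to vary like the other groups. Without both libraries that held Xist reads it was -2.03, which sets 1 library against 1.

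**Figure D3:**
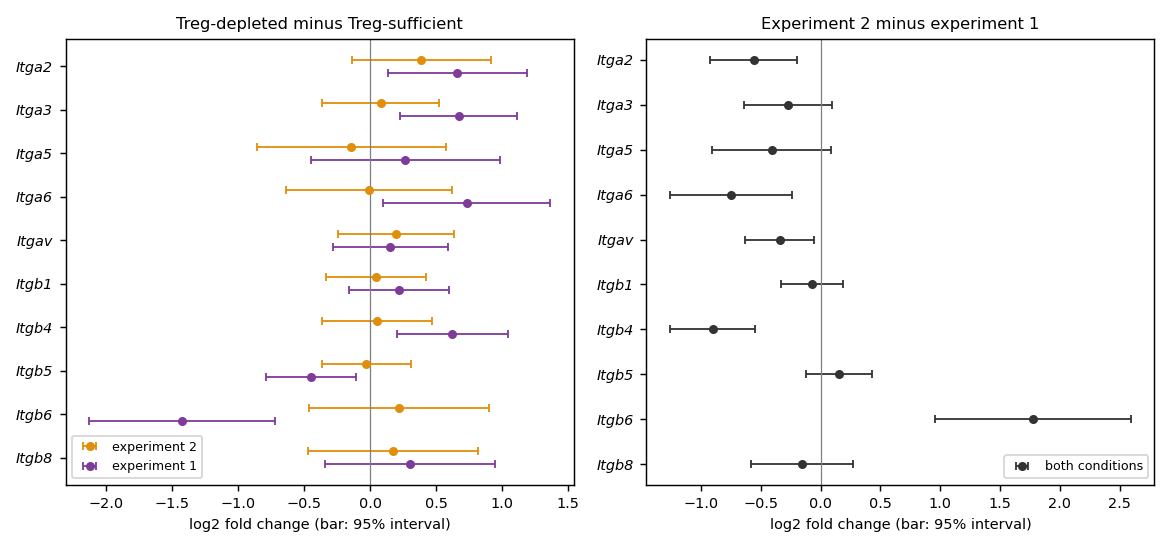
Log2 fold changes of the 10 integrin genes with 95% intervals, for Treg-depleted minus Treg-sufficient libraries within experiment 2 and experiment 1 (left) and for experiment 2 minus experiment 1 (right). Within experiment 1 the Itgb6 interval lies furthest below 0, at -2.13 to -0.72, and between experiments Itgb4 (-0.90) and Itgb6 (1.78) lie furthest from 0 on opposite sides.

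Between the experiments 1 member passed the test. Itgb4 fell in experiment 2, to 0.535 times its level in experiment 1 (308 ± 30.4 CPM in experiment 2 and 589.5 ± 158 CPM in experiment 1, SD, n = 4 each; log2 difference -0.90, SE 0.16). Its edgeR adjusted p was 0.0446, and it was the only member called (1 of 10, beside 1.62% of all genes in either direction, 0.903% higher and 0.721% lower). Itgb6 averaged 105 ± 21.8 CPM in experiment 2 and 34.1 ± 18.8 CPM in experiment 1 (SD, n = 4 each). Its log2 difference of 1.78 (SE 0.36) just missed the threshold (edgeR adjusted p = 0.0516). These were also the 2 members whose experiments did not overlap, beside 13.4% of all genes, 7.50% higher and 5.86% lower. At an unadjusted p under 0.05 there were 5 of 10 members (Itga2, Itga6, Itgav, Itgb4 and Itgb6), beside 22.0% of all genes. Itga6 averaged 482 ± 112 CPM in experiment 2 and 837 ± 267 CPM in experiment 1 (log2 difference -0.75, SE 0.23, adjusted p = 0.0965). Itga2 ranged from 24.0 to 41.4 CPM in experiment 2 and from 35.9 to 70.4 CPM in experiment 1 (log2 difference -0.56, SE 0.16, adjusted p = 0.0878). Only 2 members, Itgb5 and Itgb6, had positive differences, beside 47.3% of all genes, and the median over the 10 was -0.31 against -0.02 over all genes tested. For Itgb1 the log2 difference was -0.07 with a 95% interval of -0.33 to 0.19. Itga3, Itga5 and Itgb8 had log2 differences of -0.27 (SE 0.16), -0.41 (SE 0.22) and -0.16 (SE 0.19). The call on Itgb4 was near its threshold: with the direction kept, it was lost without any 1 of 7 libraries, and it held without Treg-sufficient replicate 1 (edgeR adjusted p of 0.0267 to 0.156 over the 8 fits). Without both libraries that held Xist reads its log2 difference was -0.77 (adjusted p = 0.203). Itgb6 was called by edgeR without Treg-sufficient replicate 1 (adjusted p = 0.0391) and by DESeq2, which also called Itga2, Itga6 and Itgb4. Over all genes DESeq2 called many more than edgeR between experiments, as counted in the closing section, so its member calls have a higher background.

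Ratios of 2 chains within a library do not depend on how libraries are scaled, and they are described here with no test. The log2 ratio of Itgav to Itgb6 counts was 0.28 and 0.10 in Treg-depleted and 0.38 and 0.11 in Treg-sufficient libraries of experiment 2. In experiment 1 it was 3.65 and 2.69 in Treg-depleted and 1.29 and 1.80 in Treg-sufficient libraries. The 4 groups of libraries thus fell into 3 ranges, with both conditions of experiment 2 sharing the lowest. As a share of the summed CPM of the αv partners Itgb5, Itgb6 and Itgb8, Itgb6 made up 28.7% and 26.1% in Treg-depleted and 23.5% and 26.9% in Treg-sufficient libraries of experiment 2. The share was 4.11% and 7.85% in Treg-depleted and 17.2% and 11.8% in Treg-sufficient libraries of experiment 1.

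The log2 ratio of Itgb4 to Itgb1, the β chains of hemidesmosome and focal contact receptors, was above 0 only in the Treg-depleted libraries of experiment 1 (0.34 and 0.31). It was -0.16 and -0.01 in the Treg-sufficient libraries of that experiment and between -0.88 and -0.53 in experiment 2. The ratio of Itga3 to Itgb1 was likewise highest in that pair, at -1.05 and -1.02, against -1.49 in both Treg-sufficient libraries of experiment 1 and -1.65 to -1.36 in experiment 2. The hemidesmosome pair itself kept no such order: the log2 ratio of Itga6 to Itgb4 ran from 0.23 to 0.85 in Treg-depleted and from 0.35 to 0.89 in Treg-sufficient libraries, so that neither experiment nor condition separated it. The ratio of Itgav to Itgb8 stayed within -0.47 and 0.14 in all 8.

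**Figure D4:**
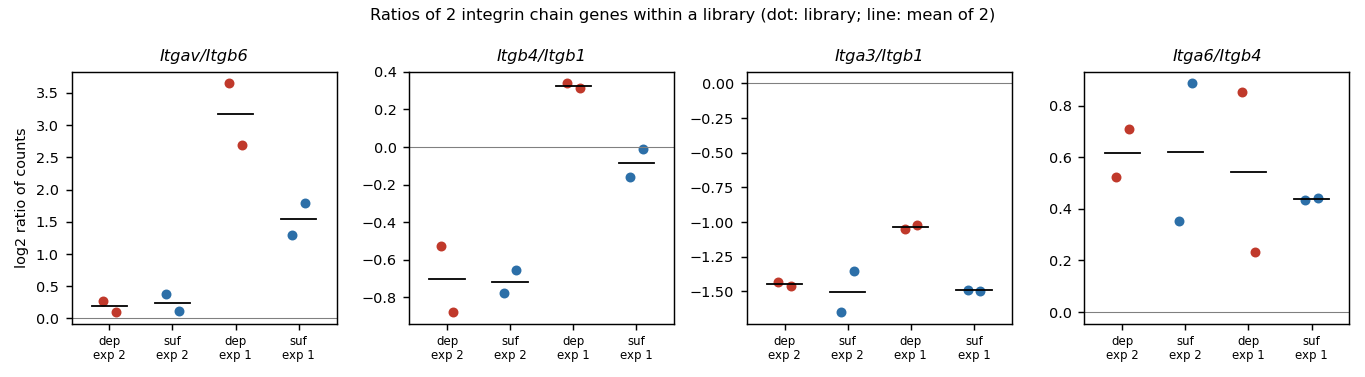
Log2 ratios of the counts of 2 integrin genes within each library (dots) with the mean of each pair (line), for Treg-depleted (dep) and Treg-sufficient (suf) libraries. The Itgav to Itgb6 ratio lies between 0.10 and 0.38 in experiment 2 and reaches 3.65 in experiment 1. The Itga6 to Itgb4 ratio overlaps between the conditions and between the experiments.

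Profiles over the 8 libraries were compared by the mean absolute difference of centred log2 CPM, a description of likeness with no test. Among members, Itga2 was nearest to Itga6 (0.16), Itgav to Itgb8 (0.13) and Itgb4 to Itga6 (0.20). The nearest member to Itgb6 was Itgb5 at 0.81, while Itgb6 itself deviated from its own mean by 0.89 on average and Itgb1 by 0.10. The measure is not scaled for such spread, so it sets widely varying genes apart from steadier ones. Among 10045 tested genes with a mean of at least 10 CPM, those nearest to Itgb4 were Shisa5 (0.064), Cav2 (0.072) and Degs1 (0.097). Those nearest to Itga6 were Stat3, Il13ra1 and Lgmn (0.11 each), and those nearest to Itgb1 were Mpg (0.030), Pgrmc2 (0.035) and Ccdc47 (0.036). All these profiles come from the same 8 libraries, with their experiments and depths.

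The genes around the integrins were read from lists of their ligands, partners and regulators. Between conditions 0 genes of these 6 lists passed by edgeR or limma-voom, and DESeq2 called 1 ligand as higher. At an unadjusted p under 0.05 were 2 of 14 tested ligands, 3 of 22 adaptors, 3 of 16 genes of TGF-β activation, 1 of 11 inhibitors and trafficking genes, and 0 of 6 hemidesmosome partners and 0 of 10 other integrin chains, beside 7.12% of all genes. Between experiments 7 genes of the lists were higher and 2 lower in experiment 2 at an adjusted p of 0.05 by edgeR, beside 0.903% higher and 0.721% lower of all genes. They were 5 of 14 tested ligands, 3 of 22 adaptors and 1 of 16 genes of TGF-β activation.

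Matrix ligands held 5 of these 9 calls. Lamc1 and Lamb1, γ and β chains of laminins other than the hemidesmosomal one, rose in experiment 2. Lamc1 averaged 368 ± 53.4 CPM in experiment 2 and 164 ± 32.4 CPM in experiment 1 (log2 difference 1.19, SE 0.16), and Lamb1 259 ± 26.7 and 145 ± 19.5 CPM (0.84, SE 0.11). Both chains of the basement membrane collagen rose too: Col4a1 averaged 628 ± 93.5 CPM in experiment 2 and 208 ± 89.7 CPM in experiment 1 (1.68, SE 0.26), and Col4a2 rose by 1.04 (SE 0.15). These 4 had an edgeR adjusted p of 0.0439 each. Postn, which encodes periostin, a matrix protein that binds αv integrins, fell in experiment 2, with 2002 ± 786 CPM in experiment 2 and 8078 ± 5975 CPM in experiment 1 (log2 difference -1.90, SE 0.35, adjusted p = 0.0472). Its highest value was 16546 CPM in Treg-depleted replicate 1, and its log2 difference between conditions was 1.18 (SE 0.34) with an adjusted p of 0.686.

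Of the adaptors that link β chains to actin, 3 of 22 tested were called as higher in experiment 2 by edgeR and 0 as lower. They were Fermt2, a kindlin that activates integrins (53.0 ± 4.35 CPM in experiment 2 and 36.2 ± 1.07 CPM in experiment 1), Pxn, the focal adhesion scaffold paxillin (132 to 144 CPM in experiment 2 and 88.3 to 106 CPM in experiment 1), and Tln2, a talin (45.9 ± 5.31 and 30.5 ± 3.78 CPM). Their log2 differences were 0.55, 0.50 and 0.59, with an edgeR adjusted p of 0.0446 for Fermt2 and Pxn and a value just under the threshold of 0.05 for Tln2. The list as a whole went both ways, with 10 positive and 12 negative differences, from -0.89 to 0.59. At an unadjusted p under 0.05 by edgeR there were 15, beside 22.0% of all genes. DESeq2 called 4 as higher and 7 as lower, with the higher background counted in the closing section. Ilk, the kinase-like adaptor of β1, was listed with at most 0.355 CPM in any library and was not tested (it is named after its values were seen). Taf10 and Rrp8 overlap it on the opposite strand, and no source used here states the strand setting of the counting. In the TGF-β list 1 of 16 passed: Ltbp2, a latent TGF-β binding protein family member, fell to 28.5 ± 22.0 CPM in experiment 2, against 149.8 ± 64.6 CPM in experiment 1 (log2 difference -2.41, SE 0.44, adjusted p = 0.0473). Ltbp4 and Ltbp3, the most abundant of the list, had log2 differences of -0.01 and 0.08.

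The hemidesmosome partners counted 0 of 6 calls between experiments by edgeR and limma-voom, 5 at an unadjusted p under 0.05 (beside 22.0% of all genes) and 2 by DESeq2. DESeq2 called many more genes than edgeR in this comparison, as counted in the closing section. All 6 partners had negative differences (beside 8691 of 16495 genes tested), among them the basal keratins Krt5 (-0.55, SE 0.18) and Krt14 (-0.83, SE 0.33). The integrin inhibitors and trafficking genes also counted 0 of 11 calls (2 at an unadjusted p under 0.05, beside the same 22.0%, 0 by DESeq2 and by limma-voom), with Flna at 0.11 (SE 0.13) and the tetraspanin Cd9 at 0.02 (SE 0.12). Of the 17 other integrin chains listed, 10 passed the filter and 0 were called between experiments (3 at an unadjusted p under 0.05, again beside 22.0%, 3 by DESeq2 and 0 by limma-voom). The most abundant of them was Itga1, a collagen receptor chain at 21.4 ± 8.22 CPM in the Treg-depleted and 24.3 ± 10.4 CPM in the Treg-sufficient libraries, followed by the laminin receptor chain Itga7. The leukocyte β chain Itgb2 was at 0.142 ± 0.0928 CPM in the Treg-depleted and 0.164 ± 0.112 CPM in the Treg-sufficient libraries. The list calls between experiments were lost without any 1 of the 4 Treg-depleted libraries and without Treg-sufficient replicate 2 or 4. Without Treg-sufficient replicate 3, 4 ligands were called as higher and no other gene of the lists. Over all genes the 8 fits without 1 library called 0 to 651, and the number for that fit alone is not given here.

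Markers of cell state and of other cell types were read in the same groups, and the sums of several lists overlapped between them. All 5 cell cycle genes, Mki67 among them, were measured, and they summed to 1756 and 2071 CPM in the Treg-depleted and 2301 and 1958 CPM in the Treg-sufficient libraries of experiment 2. The sums were 321 and 685 CPM in the Treg-depleted and 1707 and 1214 CPM in the Treg-sufficient libraries of experiment 1, so the pair with the least Itgb6 also had the least cell cycle RNA. The 7 suprabasal markers found in the table summed to 918 and 695 CPM in the Treg-depleted and 458 and 756 CPM in the Treg-sufficient libraries of experiment 2, and to 1090 and 668 CPM in the Treg-depleted and 1815 and 1560 CPM in the Treg-sufficient libraries of experiment 1. Flg was at 0 in 7 of 8 libraries, and Krtdap fell in experiment 2 (log2 difference -1.60, edgeR adjusted p = 0.0439). Of the 5 melanocyte markers 4 had positive and 1 a negative log2 difference between experiments. Dct, Pmel and Tyrp1 rose in experiment 2, whereas Mitf was at 16.3 to 43.8 CPM in experiment 2 and 34.0 to 42.7 CPM in experiment 1. The list summed to 124 to 375 CPM in experiment 2 and 57.0 to 83.4 CPM in experiment 1. The 8 fibroblast markers summed to 61.2 to 117 CPM in experiment 2 and 30.8 to 99.3 CPM in experiment 1. Among the 7 follicle stem cell markers, 4 had positive and 3 negative log2 differences between experiments, from -1.63 to 0.77. The 1 called by edgeR was Tcf7l1, which rose in experiment 2 (log2 difference 0.77, adjusted p = 0.0439). Cd34 went the other way, with 73.9 to 276 CPM in experiment 2 and 242 to 602 CPM in experiment 1. The list summed to 4853 to 9601 CPM in the Treg-depleted and 4943 to 9570 CPM in the Treg-sufficient libraries. The part of these markers in the integrin values was not tested.

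**Figure D5:**
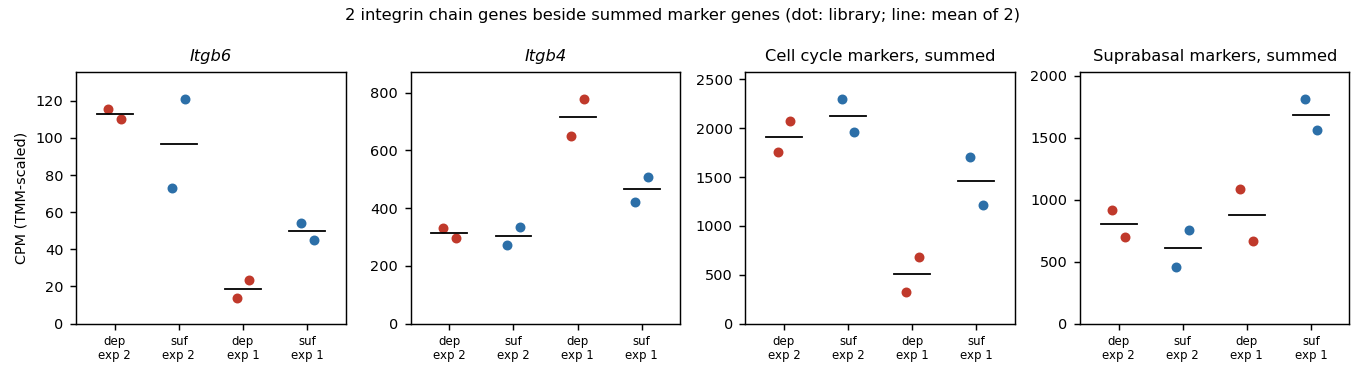
CPM of Itgb6 and Itgb4 beside the summed CPM of 5 cell cycle and 7 suprabasal markers in every library (dots) with the mean of each pair (line). The Treg-depleted libraries of experiment 1, at 13.6 and 23.4 CPM of Itgb6, have cell cycle sums of 321 and 685 CPM, below all other libraries, while the suprabasal sums are highest in the Treg-sufficient libraries of experiment 1.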

How the data were processed

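The authors deposited raw read counts per gene for 8 libraries, with 5 tallies of reads given to no gene. The kit was TruSeq Stranded mRNA, per the labels' protocols. Per the submitters' processing notes, the tools were TopHat2 (version 2), SAMtools, HTSeq and DESeq2, with build GRCm38.p4. No source used here states the strand setting of the counting. Neither library sizes nor tests include the tallies, whose shares of all reads were 6.63 to 10.8% for reads in no gene, 2.72 to 3.01% for ambiguous ones and 26.2 to 30.6% for multiple alignments. GENCODE M21 paired 45229 identifiers with a symbol.

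The test was that of edgeR 4.0.16 under R 4.3.3 (TMM, filterByExpr with a minimum count of 10 by condition, quasi-likelihood F-test, Benjamini-Hochberg over 16495 genes, threshold 0.05). One model held condition and experiment, with 5 residual degrees of freedom. A model of 4 groups (4 residual degrees of freedom) gave effects within experiments and their difference. Levels are CPM on TMM-scaled totals. DESeq2 1.42.0, limma-voom (limma 3.58.1) and the other alternatives are given in the closing section. On simulated counts (16093 to 16120 genes a run), the share of true changes recovered at a log2 size of 1 was 61% between conditions, 73% between experiments, 16% in experiment 1, 22% in experiment 2 and 3% for the difference between effects. At a log2 size of 2 these shares were 97%, 97%, 83%, 87% and 40%. Unchanged genes made up 3.66 to 8.51% of the calls. Under the Benjamini-Hochberg adjustment these shares depend on how many changes are simulated and how large they are. They therefore do not give the sensitivity of the real comparisons.

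The members and lists were chosen with earlier results of these data known. All 10 members are named between conditions and between experiments, and only some for the difference between effects. Genes from the lists of ligands, partners and regulators were picked by a rule between experiments only. They are those that passed and, where fewer than 2 did, the 2 with the highest mean CPM. Ilk and Itgb2 stand outside this rule. Motifs were searched as exact letters in RefSeq promoter windows (GRCm38.p6), cut at the GENCODE start.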

Additional observations from a re-analysis of the deposited data

Results flagged for a closer look

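Of 76 sets of 4 values examined (member levels and chain ratios in each condition or experiment), 3 held a library far from the other 3, and chance gives about 1 in 20. Itgb8 stood at 212 CPM in Treg-depleted replicate 1, against 164 to 170.0 CPM in the other Treg-depleted libraries. The log2 ratio of Itga6 to Itgb4 was 0.89 in Treg-sufficient replicate 4, while the other 3 of that condition lay between 0.35 and 0.44. The log2 ratio of Itga5 to Itgb1 was -5.09 in Treg-sufficient replicate 3, one of the libraries with counts for the fewest genes, while the other 3 of that condition lay between -4.74 and -4.67.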

How the results depend on the processing

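Between conditions, integrins called numbered 2 with no filter on low counts (Itga2 and Itgb6, among 820 genes), and DESeq2 called 84 genes and no integrin. Between experiments, where 1 integrin and 268 genes were called, the counts were 4 and 2443 with no filter, 4 and 2167 by DESeq2, and 2 and 1058 with 4 groups in the model. The counts were 0 and 0 with experiment as the one factor, 0 and 2 without both libraries with Xist reads, and 0 and 0 without the 2 libraries with fewest genes. A filter at a mean count of at least 50 gave 2 integrins. Its count over all genes is not given here, so these 2 stand without a background. Leaving out 1 library gave 0 to 2 integrins and 0 to 651 genes. Within experiment 1, where 100 genes were called, the counts were 3 integrins and 1152 genes with no filter, 1 and 721 by DESeq2, 1 and 487 without the libraries with Xist reads (which sets 1 library against 1), 1 and 570 without those with fewest genes, and 0 to 1 and 0 to 442 leaving out 1 library. Within experiment 2 no filter gave 132 genes and DESeq2 gave 1. For the difference between these effects the counts were 1 integrin and 534 genes with no filter, 1 and 182 by DESeq2, 89 genes without the libraries with Xist reads and 0 to 9 leaving out 1 library. The cause of these moves was not tested.

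With the replicate letter as a block, the calls between experiments were 0 integrins and 0 genes (Itgb4 adjusted p = 0.119 by edgeR), and 2 genes were called within experiment 1. Libraries of the same letter did not deviate together within condition and experiment (r = -0.26 and -0.23), and the letters were not read as pairs. With 2 libraries a group the deviations mirror each other, so each experiment gives a single value. That cannot settle whether the letters are pairs.

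The log2 values that changed sign were these. Without the libraries with Xist reads and without those with fewest genes, Itga5 was -0.14 and -0.27 between conditions and -0.13 and -0.15 within experiment 1, Itgb1 was 0.037 and 0.048 between experiments, and the difference between effects was -0.13 and -0.26 for Itgav. Within experiment 2, Itga6 was 0.0053 with upper-quartile factors, 0.055 by limma-voom and 0.051 with the block. Without the libraries with fewest genes, the effects within experiment 2 were -0.14 for Itga3, -0.018 for Itgav, -0.047 for Itgb1, -0.10 for Itgb4, -0.10 for Itgb6 and -0.14 for Itgb8. Leaving out 1 library, Itga5 ran from -0.16 to 0.22 between conditions and from -0.19 to 0.57 within experiment 1, and Itgb1 from -0.13 to 0.0099 between experiments. Within experiment 2 the ranges were -0.14 to 0.34 (Itga3), -0.42 to 0.15 (Itga5), -0.37 to 0.47 (Itga6), -0.019 to 0.45 (Itgav), -0.059 to 0.14 (Itgb1), -0.10 to 0.21 (Itgb4), -0.18 to 0.10 (Itgb5), -0.10 to 0.63 (Itgb6) and -0.14 to 0.57 (Itgb8). For the difference between effects they were -0.54 to 0.066 (Itga2), -0.71 to 0.040 (Itga5), -0.17 to 0.30 (Itgav), -0.29 to 0.0079 (Itgb1) and -0.46 to 0.27 (Itgb8). Over the single integrins 811 values kept their direction and side of the threshold, 48 changed sign, 20 newly passed and 11 no longer passed. Each experiment holds 2 libraries a condition, which limits what the effects within experiments can show. Ratios of chains per length were not run.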
